A study of Danio rerio with 36 samples.

Results

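Wnt and Fgf proteins are secreted signals that pattern the vertebrate embryo. Wnt ligands bind Frizzled receptors on the cell surface, and secreted Frizzled-related proteins (sfrp genes) and Dickkopf proteins (dkk genes) keep ligand, receptor or co-receptor from signalling. Fgf ligands bind receptor tyrosine kinases, and in zebrafish embryos both pathways are known for keeping the tailbud growing, for patterning the midbrain and hindbrain, and for guiding cell movements as the body axis lengthens. The genes described here are the Wnt and Fgf ligand and receptor genes of an array of the zebrafish genome. A probe set was taken when the platform annotation gave it exactly 1 symbol and that symbol began with wnt, fzd, sfrp, dkk, fgf or fgfr followed by a digit, and each gene was followed through its probe set with the highest mean over all arrays. This gave 37 of the 8793 genes with their own symbol on the array, among 15502 probe sets tested: 10 Wnt ligand genes, 8 Frizzled genes, 5 genes of secreted Wnt inhibitors, 10 Fgf ligand genes and 4 Fgf receptor genes. Roles were set by symbol, so fgf13a, whose product is not secreted, is counted with the Fgf ligand genes.

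The arrays came from whole embryos of the line Tg(fli1a:EGFP)y1, whose fli1a promoter drives a green fluorescent protein mainly in blood vessel cells, and all groups carried this transgene. Exposure ran at 25C in closed glass vials and began roughly 3 hours after fertilization (hpf). The vials held embryo medium without (control) or with the gasoline oxygenate methyl tert-butyl ether (MTBE), at doses of 0.00625, 0.625 and 5 mM. Embryos were taken at 6-somites (about 15 hpf), 21-somites (about 24 hpf) or Prim-5 (about 30 hpf). Each of the 12 groups of stage and dose had 3 arrays, and each array held the RNA of a pool of 15 embryos. Stages were compared over the mean of the 4 dose groups, 12 arrays a stage, and changes are log2 differences of the later minus the earlier stage with their standard error (SE).

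Pearson correlations between replicate arrays were 0.984 to 0.9959. The stage labels were met by the defining markers of growing tissues: the tailbud gene msgn1 had stage means of 7.02, 5.68 and 3.93 from 6-somites to Prim-5, and the muscle gene myl1 had 2.27, 8.65 and 9.86. A pair of controls, the first replicates at 6-somites and at 21-somites, stood apart, with a mean level of 24 yolk syncytial layer genes of 4.85 and 5.01 against 5.58 to 6.65 in the other controls of these stages. Counts of member genes are therefore also given without these 2 arrays. A background level of 2.98 (log2) was taken from the array's probe sets for red fluorescent protein, a reporter that the labels do not name for this line, as the higher of their means. The brighter of these probe sets ran from 2.47 to 3.54 on single arrays, and the mean of the other was 2.18. Genes with means between 2.47 and 3.54 are therefore less surely above or under the mark. By this mark 19 of the 37 genes were above background in all 12 groups and 26 in some group. The 11 that were above it in no group, and for which no fold is given, were wnt2, wnt2ba, wnt4b, wnt10a, dkk2, dkk3b, fgf3, fgf4, fgf8b, fgf10a and fgf18a. Of all probe sets tested, 41.6% had an overall mean at or under it.

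Over the 2 stage steps together the genes moved mostly downward. At Prim-5 compared with 6-somites, 25 of the 37 were lower and 4 higher (limma, Benjamini-Hochberg adjusted p under 0.05), beside 41.5% of all probe sets lower and 25.4% higher. The median change of the 37 genes was -0.278, and that of all probe sets was -0.095. The 4 higher genes were fgf13a, fgf10a, fgfr3 and fgfr2, all of the Fgf family, also after quantile and cyclic loess normalization. Among the called genes, wnt2ba, dkk3b, fgf3 and fgf4, all lower, and fgf10a, higher, were above background in no group. By role, 7 of 10 Wnt ligand genes, 7 of 8 Frizzled genes, 4 of 5 inhibitor genes, 5 of 10 Fgf ligand genes and 2 of 4 Fgf receptor genes were lower. In the first step, 21-somites against 6-somites, 16 genes were lower and 4 higher, beside 31.2% and 21.5% of all probe sets, and the medians were -0.127 for the genes and -0.066 for all probe sets. In the second step, Prim-5 against 21-somites, 14 were lower and 2 higher, beside 16.8% and 13.6% of all probe sets, with medians of -0.118 and -0.030. Of these 14, fzd8b, fgf3 and wnt10a had means under background at both stages compared. In the first step this held for fgf3, called lower, and fgf10a, called higher. Without the 2 yolk-poor controls the counts were 15 lower and 5 higher in the first step, 15 and 3 in the second, and 25 and 4 over both. The balance among all probe sets depended on scaling: of those called, 40.8%, 44.8% and 37.9% were higher in the first step, the second step and over both, but 51.2%, 58.8% and 50.1% after cyclic loess normalization. Under cyclic loess 15 of the member genes were lower and 7 higher in the first step, 12 and 2 in the second, and 21 and 4 over both.

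**Figure D1:**
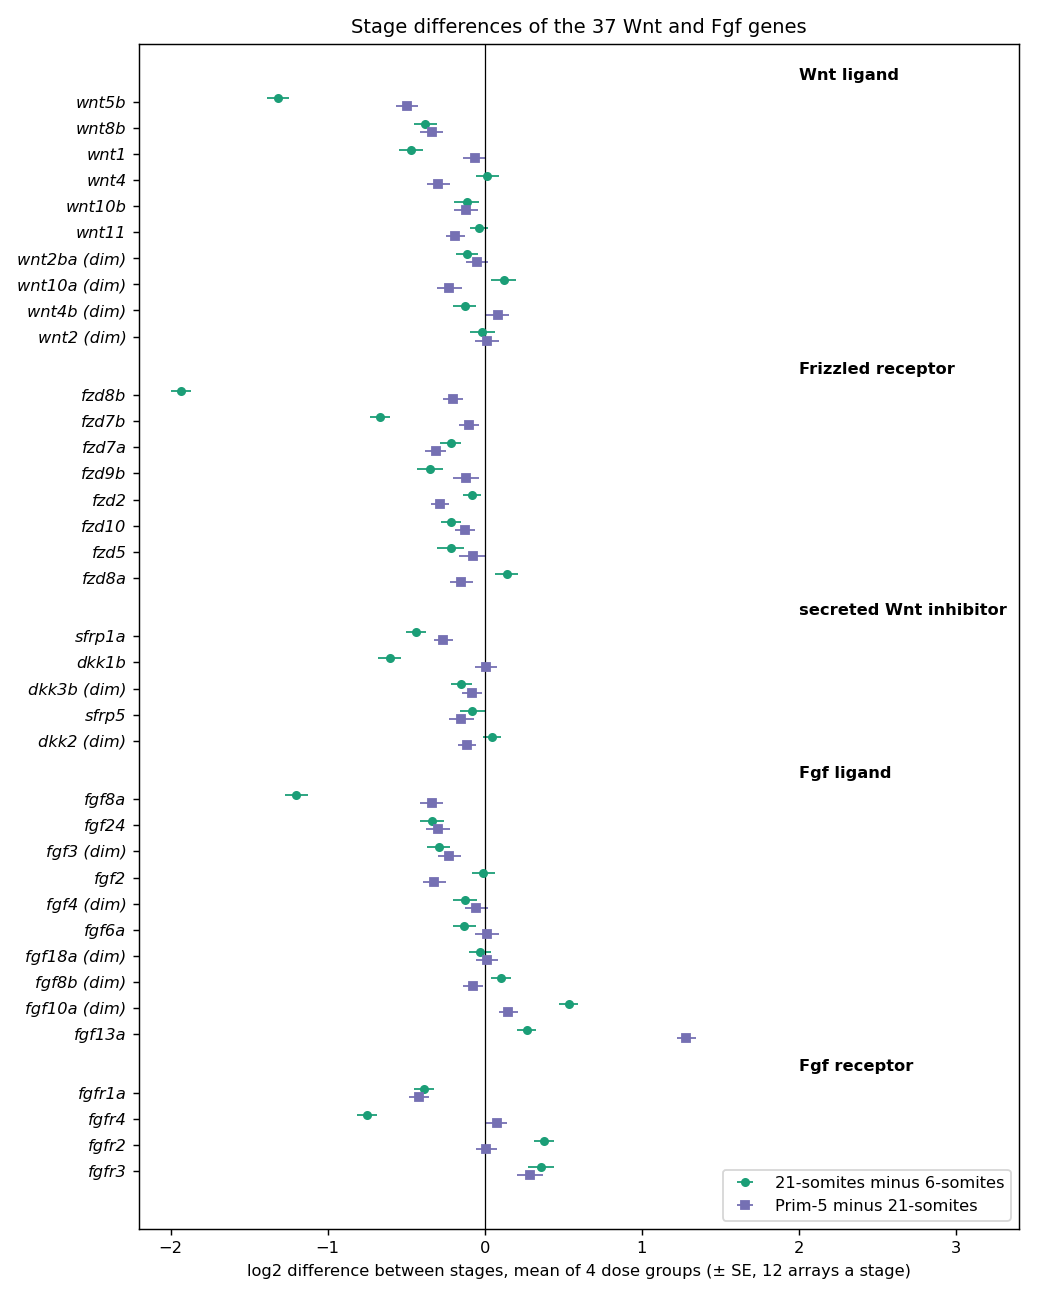
Log2 difference of each of the 37 genes between stages (x axis, ± SE, 12 arrays a stage, mean of 4 dose groups), grouped by role, with circles for 21-somites minus 6-somites and squares for Prim-5 minus 21-somites. Genes marked dim were above background in no group. fzd8b (-1.93), wnt5b (-1.32) and fgf8a (-1.20) lie farthest left in the first step, and fgf13a (1.28) farthest right in the second.

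The 4 dose groups share no arrays, so each repeats the stage comparison with 3 arrays against 3. From the controls over 0.00625 and 0.625 to 5 mM, the first step had 10, 9, 9 and 12 genes lower, beside 10.9%, 13.3%, 10.4% and 15.1% of all probe sets, and 1, 1, 4 and 3 higher, beside 11.7%, 11.2%, 10.8% and 12.6%. The second step had 3, 3, 6 and 1 lower, beside 2.7%, 2.34%, 5.45% and 3.94%, and 2, 1, 1 and 1 higher, beside 4.33%, 4.9%, 5.86% and 5.38%. Over both steps 13, 19, 17 and 17 were lower, beside 19.5%, 23.4%, 22.8% and 23%, and 5, 4, 3 and 4 higher, beside 16.8%, 17%, 17.2% and 16.9%. In the first step fzd8b, wnt5b, fgf8a, fgfr4, fzd7b and dkk1b were lower in each of the 4 dose groups, 6 genes beside 4.27% of all probe sets, and fgf10a was higher in each (6.45% of all probe sets). In the second step 1 gene, fgf13a, was higher in each (2.52%) and 0 were lower in each (0.716%). Over both steps 11 genes were lower in each dose group (11.3% of all probe sets): wnt5b, wnt8b, fzd2, fzd7a, fzd7b, fzd8b, sfrp1a, fgf3, fgf8a, fgfr1a and fgfr4. The genes fgf10a, fgf13a and fgfr3 were higher in each (11.6%).

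The 12 arrays of a stage lay wholly apart from those of another in fewer genes. In the first step 7 genes had every 21-somites array under every 6-somites array (3.6% of all probe sets), and 2, fgf10a and fgfr2, had every one above (5.57%). In the second step 0 lay wholly lower (1.13%) and 1, fgf13a, wholly higher (2.94%). Over both steps 10 lay wholly lower (8.64%) and 3, fgf13a, fgfr3 and fgf10a, wholly higher (9.93%).

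Among the Wnt ligands, wnt5b fell most. This ligand acts mainly through pathways that do not use beta-catenin, and in zebrafish it is known for its part in the lengthening of the tail. Its log2 level ran from 5.76 over a median of 6.08 to 6.31 on the 12 arrays at 6-somites. At 21-somites it ran from 4.31 over 4.76 to 5.03, and at Prim-5 from 3.93 over 4.21 to 4.54. All arrays at 6-somites lay above all later ones, while the arrays of the later stages overlapped. Its change was -1.32 ± 0.07 in the first step and -0.49 ± 0.07 in the second, and Prim-5 embryos were 3.51-fold lower than 6-somites embryos (limma, adjusted p = 5.47e-23). The changes over both steps were -1.81 in controls, -1.87 at 0.00625 mM, -1.92 at 0.625 mM and -1.66 at 5 mM, each with 3 arrays a stage.

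wnt8b, a ligand of the beta-catenin pathway made in the forebrain and midbrain, fell in both steps. Its levels were 3.73 to 4.31 at 6-somites (median 4.08), 3.35 to 3.88 at 21-somites (median 3.68) and 2.92 to 3.54 at Prim-5 (median 3.39). Neighbouring stages overlapped, but all Prim-5 arrays lay under all 6-somites arrays. The change was -0.38 ± 0.07, then -0.34 ± 0.07, in all 1.64-fold lower at Prim-5 than at 6-somites. In the control arrays alone its first step was -0.10 and did not pass (limma, adjusted p = 0.674).

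wnt1, which marks the midbrain-hindbrain boundary and the dorsal midline of the brain, moved in the first step. Its levels were 3.50 to 4.29 at 6-somites (median 3.88), 3.25 to 3.73 at 21-somites (median 3.46) and 3.15 to 3.61 at Prim-5 (median 3.46). The later stages lay on the same median, and both overlapped the lowest 6-somites arrays. The first step was -0.47 ± 0.07 and the second did not pass, at -0.06 ± 0.07. The 7 genes listed as markers of the midbrain-hindbrain boundary did not move one way over both steps: 3 were higher and 3 lower at Prim-5 than at 6-somites. Of these 7, en1b had means under background at every stage, and en2a and pax8 at Prim-5. Another of them, cnpy1, is also on the list of Fgf targets below.

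The remaining Wnt ligands had smaller differences. wnt4 had mean levels of 3.20 and 3.22 at the first 2 stages and 2.92 at Prim-5, which is under background, and its second step was -0.30 ± 0.07. wnt11, a ligand of the pathways for cell movement, had means of 4.94, 4.91 and 4.72 and was lower only in the second step, at -0.19 ± 0.06. wnt10b, which in the GRCz12tu annotation of RefSeq stands next to wnt1 on chromosome 23 with 0 protein-coding genes between them, had stage means of 3.07, 2.96 and 2.84, of which the first was above background, and its change over both steps was -0.23 ± 0.08. The 4 other ligands, wnt2, wnt2ba, wnt4b and wnt10a, had stage means of 1.90 to 2.44, and of these wnt2ba was lower over both steps and wnt10a in the second. In the control arrays alone the change of wnt4 over both steps was -0.15 and did not pass (limma, adjusted p = 0.484).

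**Figure D2:**
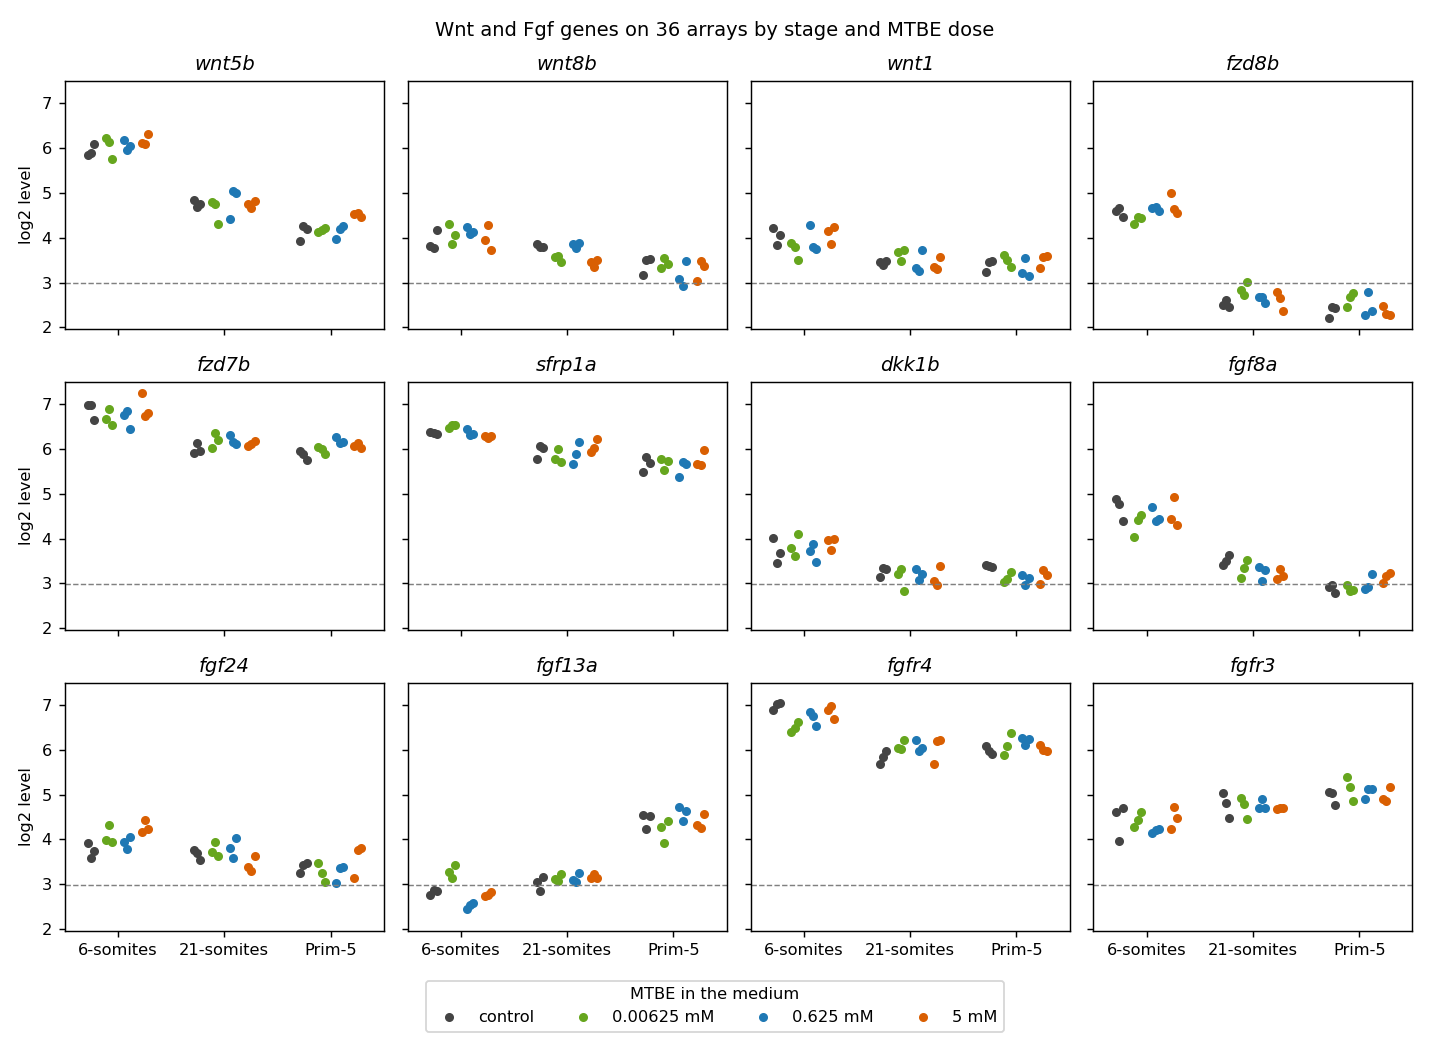
Log2 level (y axis) of 12 of the genes on each of the 36 arrays, by stage (x axis) and coloured by MTBE dose, with 3 arrays a group and the background level of 2.98 as a dashed line. In fzd8b the 6-somites arrays lie at 4.30 to 4.99 and the later ones at 2.22 to 3.02, whereas fgf13a lies at 3.93 to 4.73 at Prim-5 and at 2.45 to 3.44 before.

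Of the Frizzled genes, fzd8b fell most in the first step. On the 12 arrays at 6-somites its level ran from 4.30 over a median of 4.59 to 4.99. At 21-somites it ran from 2.36 over 2.66 to 3.02 and at Prim-5 from 2.22 over 2.44 to 2.78, so both later stages had means under background. The 6-somites arrays did not overlap either later stage. The first step was -1.93 ± 0.07 as measured (limma, adjusted p = 1.52e-24). Since the later levels are only a bound, fzd8b was at least 3.05-fold lower at 21-somites than at 6-somites. The first step was -2.05 in controls, -1.54 at 0.00625 mM, -2.01 at 0.625 mM and -2.13 at 5 mM.

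fzd7b and fzd7a, copies of a receptor known for its part in the movements of gastrulation, were among the brightest of the set. fzd7b had levels of 6.45 to 7.24 at 6-somites (median 6.78), 5.90 to 6.36 at 21-somites (median 6.12) and 5.74 to 6.27 at Prim-5 (median 6.03). The first stage did not overlap the later ones, and the later ones overlapped each other. fzd7a had medians of 7.38, 7.12 and 6.88, with neighbouring stages overlapping. The steps were -0.67 ± 0.06 and -0.10 ± 0.06 for fzd7b, and -0.22 ± 0.07 and -0.31 ± 0.07 for fzd7a. The second step of fzd7b did not pass in this probe set but did in its dimmer second probe set, at -0.28 ± 0.08 (limma, adjusted p = 0.00971).

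The other Frizzled genes moved less in the probe sets used. fzd9b changed by -0.35 ± 0.08 in the first step and by -0.47 ± 0.08 over both, and in the control arrays alone the change over both was -0.25 and did not pass (limma, adjusted p = 0.238). Over both steps fzd2 changed by -0.37 ± 0.06, fzd10 by -0.34 ± 0.06 and fzd5 by -0.29 ± 0.09. The dimmer second probe set of fzd10 changed more, by -0.77 ± 0.08 over both steps (limma, adjusted p = 2.48e-10). Its second step was -0.38 ± 0.08 (limma, adjusted p = 0.000334), while that of the probe set used, at -0.12 ± 0.06, did not pass. The receptor gene fzd8a was the 1 Frizzled gene that did not pass in either step or over both, with stage means of 4.35, 4.49 and 4.34. Its second probe set had an overall mean of 2.52, under background. It was called higher in the first step (limma, 0.22 ± 0.07, adjusted p = 0.012) and over both steps (limma, adjusted p = 0.0049).

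The paired copies of fzd8 and fzd7 were compared side by side, by a two-sided permutation test of whether 1 copy changed more than the other (100000 resamples, 12 arrays a stage, 4 comparisons adjusted together). As measured, fzd8b changed by -2.07 ± 0.11 relative to fzd8a in the first step (permutation p = 2e-05, adjusted 8e-05, the smallest these resamples can give). Because fzd8b was under background at 21-somites, only a bound can be read: with fzd8b held at 2.98 on arrays under it, the change relative to fzd8a was -1.74 ± 0.10, with no overlap between the arrays of the stages (permutation p = 2e-05). The second step of fzd8b, under background at both of its stages, could not be compared with that of fzd8a. fzd7b fell by 0.45 ± 0.10 more than fzd7a in the first step (permutation p = 0.00016, adjusted 0.00032). In the second step the order was the opposite, with fzd7b changing by 0.21 ± 0.08 relative to fzd7a (permutation p = 0.015, adjusted 0.02). These tests rest on the probe set with the highest mean of each gene, and for fzd7 the sign in the second step comes from a fzd7b change that did not itself pass. The dimmer second probe set of fzd7b changed by -1.06 ± 0.08 in the first step. In the second step it changed by -0.28 ± 0.08, close to the -0.31 ± 0.07 of fzd7a. The opposite order in the second step therefore depends on the probe set used, and the other one was not tested against fzd7a. The second probe set of fzd8a, under background, was not tested against fzd8b either.

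**Figure D3:**
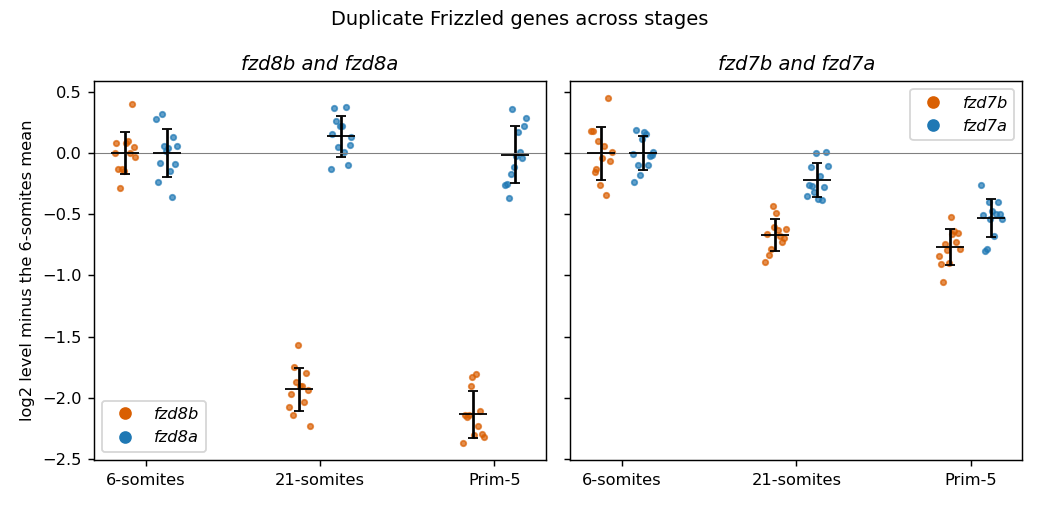
Log2 level minus the 6-somites mean of the same gene (y axis) for fzd8b and fzd8a, and for fzd7b and fzd7a, at each stage (x axis). Points are the 12 arrays of a stage and black bars the mean ± SD. fzd8b lies at about -1.93 relative to its 6-somites mean at 21-somites, where its level was under background, while fzd8a stays near 0, and fzd7a comes down in both steps.

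Among the secreted inhibitors, sfrp1a, whose product binds Wnt proteins outside the cell, fell in both steps. Its levels were 6.23 to 6.53 at 6-somites (median 6.34), 5.67 to 6.22 at 21-somites (median 5.96) and 5.37 to 5.97 at Prim-5 (median 5.67). The 6-somites arrays lay above all later arrays. The steps were -0.44 ± 0.06 and -0.26 ± 0.06, in all 1.62-fold lower at Prim-5 than at 6-somites (limma, adjusted p = 2.85e-12).

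dkk1b, whose product blocks the Wnt co-receptor and is known for its part in head formation, had levels of 3.46 to 4.09 at 6-somites (median 3.77). It had 2.84 to 3.38 at 21-somites (median 3.20) and 2.96 to 3.42 at Prim-5 (median 3.18). No 6-somites array overlapped a later one, and the later stages lay together. The change was -0.60 ± 0.07 both in the first step and over both steps. In control arrays alone it was -0.45 in the first step and -0.33 over both, the second of which did not pass (limma, adjusted p = 0.0686). sfrp5 changed by -0.23 ± 0.08 over both steps, with means of 4.34, 4.26 and 4.11, and did not pass after cyclic loess normalization (limma, -0.15, adjusted p = 0.0914). The dim genes dkk2 and dkk3b had stage means of 1.48 to 2.23, and dkk3b was called lower over both steps (limma, adjusted p = 0.00215).

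Among the Fgf ligands, fgf8a fell most. It is known in zebrafish for its part in the midbrain-hindbrain boundary and in the tailbud. Its levels were 4.04 to 4.92 at 6-somites (median 4.44), 3.06 to 3.64 at 21-somites (median 3.33) and 2.78 to 3.24 at Prim-5 (median 2.95). The 6-somites arrays lay above all later ones, and the Prim-5 mean of 2.98 was at background. The steps were -1.20 ± 0.07 and -0.34 ± 0.07. 21-somites embryos were 2.30-fold lower than 6-somites embryos (limma, adjusted p = 2.08e-16), and Prim-5 embryos at least 2.90-fold lower than 6-somites embryos. The second step in each dose group was -0.62 in controls, -0.45 at 0.00625 mM, -0.24 at 0.625 mM and -0.04 at 5 mM, and it passed in controls alone (limma, adjusted p = 0.00525), a difference between doses that the test of stage by dose did not call (adjusted p = 0.85).

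fgf24, a ligand known for its part in posterior mesoderm and pectoral fin formation in zebrafish, had levels of 3.59 to 4.43 at 6-somites (median 3.97), 3.30 to 4.03 at 21-somites (median 3.66) and 3.02 to 3.80 at Prim-5 (median 3.38). All stages overlapped. The steps were -0.34 ± 0.08 and -0.30 ± 0.08. In control arrays alone the change over both steps was -0.35 against -0.64 over all doses, and did not pass (limma, adjusted p = 0.0719). fgf2 was lower in the second step at -0.32 ± 0.07 with a Prim-5 mean of 2.87 under background, and its change over both steps was -0.33 over all doses but -0.13 in control arrays alone (limma, adjusted p = 0.512). fgf3, a ligand of the hindbrain and ear region, had stage means of 2.66, 2.37 and 2.14, all under background, and was called lower in both steps. fgf4, which stands next to fgf3 on chromosome 7 in the same annotation with 0 protein-coding genes between them, had stage means of 1.76, 1.64 and 1.59 and was called lower over both steps. fgf6a had means of 3.06, 2.93 and 2.95, and fgf8b and fgf18a had means of 1.13 to 1.70, and these 3 genes passed in no stage comparison.

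The 2 higher genes among those counted as Fgf ligand genes by symbol were of different kinds. fgf13a encodes a fibroblast growth factor homologous factor, a protein that is not secreted and is known from mammals to bind the sodium channels of neurons. Its levels were 2.45 to 3.44 at 6-somites (median 2.79), 2.84 to 3.26 at 21-somites (median 3.13) and 3.93 to 4.73 at Prim-5 (median 4.40). All Prim-5 arrays lay above all earlier ones, and the first 2 stages overlapped. The steps were 0.27 ± 0.06 and 1.28 ± 0.06. Prim-5 embryos were 2.43-fold higher than 21-somites embryos (limma, adjusted p = 2.66e-19) and at least 2.67-fold higher than 6-somites embryos, whose mean was under background. Over both steps its changes were 1.61 in controls, 0.92 at 0.00625 mM, 2.07 at 0.625 mM and 1.60 at 5 mM. fgf10a, a ligand known from limb buds, had stage means of 2.06, 2.59 and 2.75, all under background, and was called higher over both steps.

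The 4 Fgf receptors split evenly. fgfr4 and fgfr1a were lower at Prim-5 than at 6-somites, and fgfr3 and fgfr2 were higher. fgfr4 had levels of 6.39 to 7.03 at 6-somites (median 6.79), 5.67 to 6.22 at 21-somites (median 6.02) and 5.87 to 6.38 at Prim-5 (median 6.08). The first stage lay apart from the others, which overlapped. Its first step was -0.75 ± 0.07 (limma, adjusted p = 4.11e-12) and its second, at 0.08 ± 0.07, did not pass. The first step was -1.15 in controls, -0.40 at 0.00625 mM, -0.62 at 0.625 mM and -0.83 at 5 mM. fgfr1a fell in both steps, by 0.39 ± 0.06 and by 0.42 ± 0.06, with medians of 5.39, 4.99 and 4.59.

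fgfr3 had levels of 3.96 to 4.72 at 6-somites (median 4.35), 4.45 to 5.04 at 21-somites (median 4.71) and 4.77 to 5.40 at Prim-5 (median 5.05). Neighbouring stages overlapped, and the Prim-5 arrays lay above all 6-somites arrays. The steps were 0.36 ± 0.08 and 0.29 ± 0.08, in all 1.56-fold higher at Prim-5 than at 6-somites (limma, adjusted p = 1.55e-08). fgfr2, with medians of 6.59, 6.91 and 6.98, was higher in the first step at 0.38 ± 0.07 and did not pass in the second. Its second probe set was higher by 0.55 ± 0.06 over both steps, against 0.39 ± 0.07 for the first.

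For 10 of the 37 genes the change in the second step differed from that in the first (limma contrast of the steps, adjusted p under 0.05), beside 21.9% of all probe sets. The first step, from about 15 to 24 hpf, was longer than the second, from about 24 to 30 hpf. This contrast takes changes per step and was not scaled for time. In wnt5b, fgfr4, dkk1b, fzd7b and wnt1 the fall lay mostly in the first step, with differences between the steps of 0.82, 0.83, 0.61, 0.57 and 0.41. Of these, dkk1b was already near background at 21-somites, with a mean of 3.18 and arrays from 2.84 to 3.38. This left little room for a further fall of dkk1b in the second step. fzd8b and fgf8a were called as well, but fzd8b was under background at both later stages and fgf8a reached it at Prim-5, so the size of their second step was limited by the background. fgfr2 had its rise in the first step, and fgf13a had most of its rise in the second, with a difference of 1.02 ± 0.11. The 6-somites mean of fgf13a, 2.85, was under background, which limits the size of its first step. fgf10a was called too, with the larger rise in the first step, but it was under background at all stages. For wnt8b, fzd7a, sfrp1a, fgf24 and fgfr1a, which fell in both steps, no difference between the steps passed.

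The arrays were made from whole embryos, so fewer cells of a type and less RNA per cell cannot be told apart. Marker lists of other tissues moved along with stage. All 12 tailbud genes were lower at Prim-5 than at 6-somites, and their mean level lay at 5.53 to 5.79 on the arrays at 6-somites, 4.41 to 4.65 at 21-somites and 3.58 to 3.81 at Prim-5. Of 14 neuron genes 14 were higher at Prim-5 than at 6-somites, with list levels of 3.16 to 3.48, 4.26 to 4.52 and 5.13 to 5.31. Of 14 skeletal muscle genes 13 were higher, with list levels of 2.91 to 3.27, 5.91 to 6.52 and 8.06 to 8.32. Of 24 yolk syncytial layer genes 18 were higher and 5 lower. At 6-somites 9 of the 14 neuron genes and 8 of the 14 muscle genes had means under background. These included the muscle markers atp2a1 (1.80), myl1 and mylpfa (2.47) and the neuron marker islr2 (2.16), while the neuron markers elavl3, gap43 and atp1a3a and the muscle marker actc1b (5.72) were above it. At Prim-5 it was 2 neuron and 0 muscle genes. Of the 12 tailbud genes, her1 had means under background at every stage, and eve1, her7 and mespba at Prim-5. The yolk syncytial layer genes agt, ctsl.1 and hpxa were under background at every stage. The part of these tissues in the changes of the Wnt and Fgf genes was not tested.

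The rest of both pathways was read from lists of genes named for their roles, chosen with earlier results of these data known. Of 46 further Wnt pathway genes, 32 were lower and 7 higher at Prim-5 than at 6-somites, with a median of -0.439. Of 29 further Fgf pathway genes, 19 were lower and 5 higher, with a median of -0.312. The share of all probe sets in this comparison is given above, at 41.5% lower and 25.4% higher.

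Of 5 genes for Wnt co-receptors and secretion, 4 were lower and 0 higher. ror2, a co-receptor known to act with Wnt5 ligands, changed by -1.10 ± 0.08, with means of 3.57 at Prim-5 and 4.67 at 6-somites. gpc4, a glypican that carries Wnt proteins at the cell surface, changed by -0.45 ± 0.08, and the co-receptor gene ryk by -0.43 ± 0.07. Of 6 genes listed as other secreted Wnt modulators, 3 were higher and 2 lower. wif1, whose product binds Wnt proteins, was 1.52-fold higher at Prim-5 than at 6-somites, and frzb, another secreted Frizzled-related gene, was at least 2.26-fold lower, its mean lying under background at Prim-5. Of the other called genes of this group, cthrc1a and sost, both higher, were dim. shisa2a, called lower, had a mean of 2.98 at 6-somites, at the background level, and of 1.76 and 1.55 at the later stages.

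Inside the cell, 20 of 25 Wnt pathway genes were lower and 2 higher. prickle1a, which acts in planar cell polarity and in convergent extension, changed by -1.88 ± 0.07, a 3.69-fold lower level at Prim-5 than at 6-somites. The corepressor gene tle2a changed by -0.87 ± 0.06, and cby1, whose product binds beta-catenin, was at least 1.56-fold lower. Both higher genes, csnk1e and tcf7l2, were under background at all stages.

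Of 10 Wnt targets and feedback genes, 6 were lower and 2 higher, and 2 did not pass. cdx4, a homeobox gene of the posterior body, was 10.3-fold lower at Prim-5 than at 6-somites, sp5l was at least 4.69-fold lower and sp5a 2.19-fold lower. cdx4 and tbxta also stand on the tailbud list. axin2, the feedback inhibitor widely used as a readout of beta-catenin signalling, had means of 5.35, 5.24 and 5.21 and did not pass over both steps (limma, -0.14 ± 0.06, adjusted p = 0.0541). The growth gene myca was at least 2.37-fold higher and the cyclin gene ccnd1 1.25-fold higher.

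Of 14 Fgf targets and feedback genes, 10 were lower and 4 higher, with a median of -0.818. The transcription factor gene etv4, a common readout of Fgf signalling, was 2.38-fold lower at Prim-5 than at 6-somites, with means of 6.91, 6.06 and 5.66 from 6-somites to Prim-5. The phosphatase gene dusp4 was at least 1.80-fold lower and the hindbrain gene egr2b at least 1.18-fold lower, both being under background at Prim-5. Higher were cnpy1, a gene of the midbrain-hindbrain boundary, at 0.44 ± 0.08, the decoy receptor gene fgfrl1a at 0.25 ± 0.07, spred1 and the dim egr2a. Of 15 genes of the Fgf pathway inside the cell and of its co-receptors, 9 were lower, among them nras at -0.68 ± 0.06, ptpn11a at -0.44 ± 0.07 and gab1 at -0.42 ± 0.08, and the 1 higher gene, ptpn11b, was dim.

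**Figure D4:**
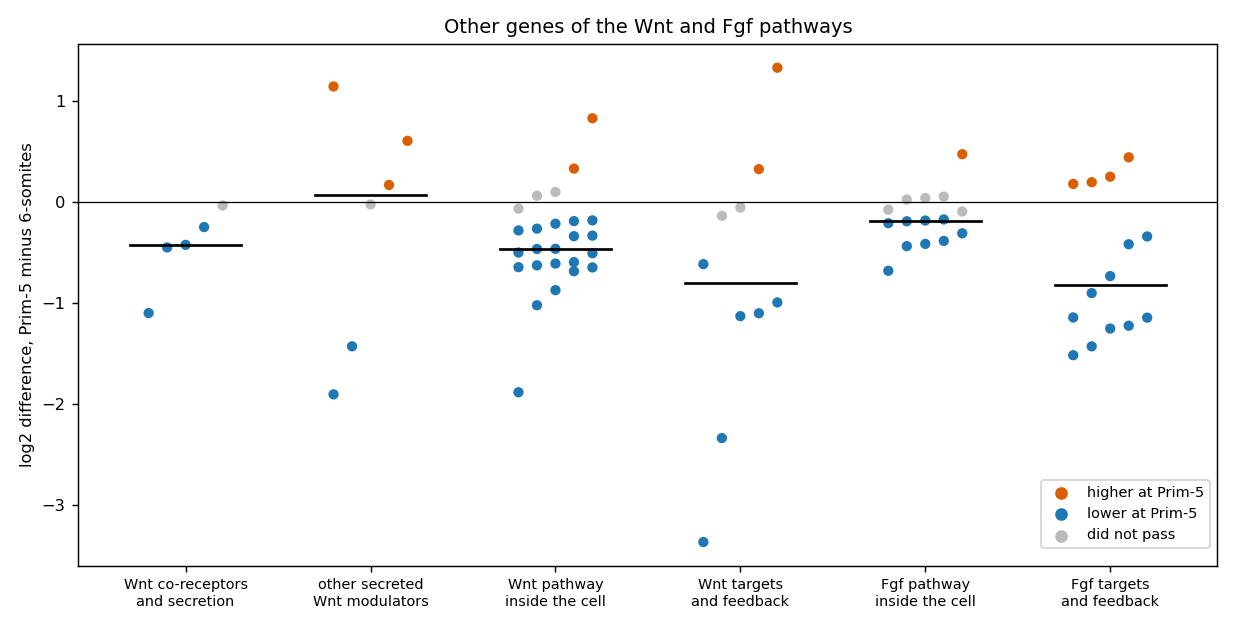
Log2 difference between Prim-5 and 6-somites embryos (y axis) for each gene of 6 lists of the Wnt and Fgf pathways (x axis), 12 arrays a stage. Colour marks genes that passed the adjusted p, and bars are list medians. The lowest point is cdx4 at -3.36, and the Fgf targets have a median of -0.818.

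MTBE gave no called change in these genes. Against controls of the same stage, 0 of the 37 genes passed (limma, adjusted p under 0.05) at 0.00625, 0.625 or 5 mM, at 6-somites, 21-somites or Prim-5, and none passed in the mean over stages. Of all probe sets, 0.29% passed at 0.00625 mM and 0.0129% at 0.625 mM at 6-somites, 0.00645% at 5 mM at Prim-5, and 0 in the other dose comparisons. At an unadjusted p under 0.05 the member genes gave 29 of 333 values: 7, 3 and 5 genes at 6-somites in order of dose, 2, 0 and 2 at 21-somites, and 2, 5 and 3 at Prim-5. All probe sets gave 13.8%, 6.88% and 8.61% at 6-somites, 5.5%, 5.93% and 7.5% at 21-somites, and 2.02%, 3.45% and 3.73% at Prim-5. The comparisons of a stage share its 3 control arrays.

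In 204 of the 333 values both groups were above background. These differences lay between -0.48 and 0.53, with a median size of 0.11. Their 95% confidence intervals lay between -0.75 and 0.84. Taken one by one, all 204 intervals excluded a change of 1 (2-fold) in either direction, and 161 excluded a change of 0.5. The intervals were not adjusted for their number, so they give no joint statement over the 204 values. The test of stage by dose (limma moderated F) called 0 of the 37 genes and 0 of all probe sets. It had an unadjusted p under 0.05 for 6 of the genes, and the smallest adjusted p among them was 0.189, for fgf13a.

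**Figure D5:**
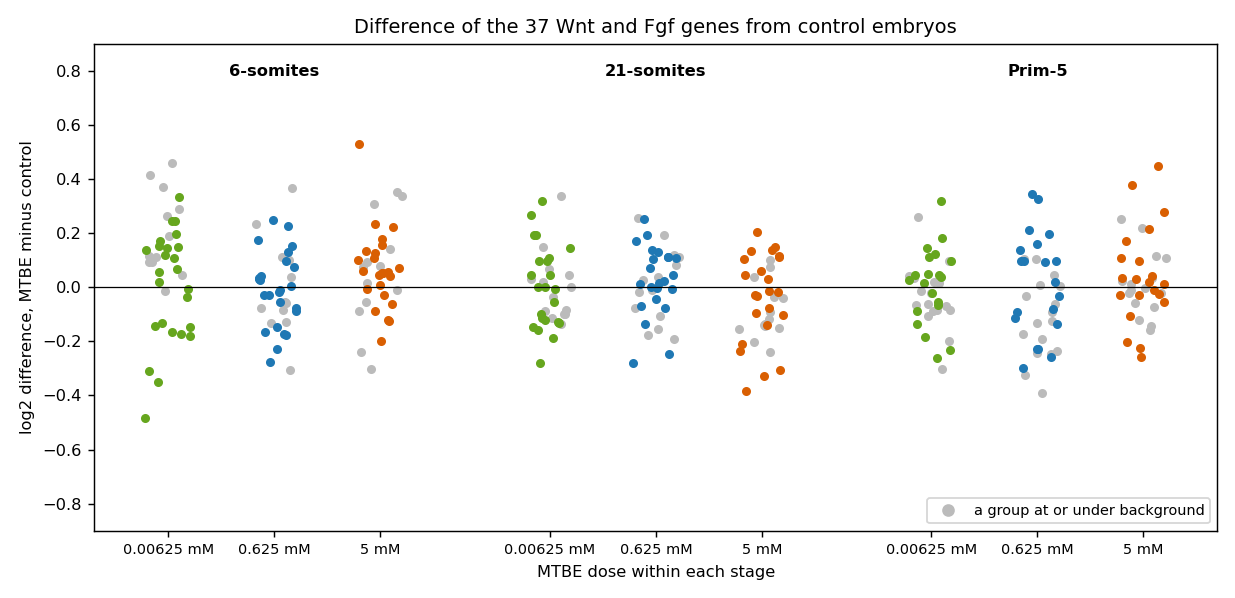
Log2 difference between MTBE and control embryos of the same stage (y axis) for the 37 genes at each dose within each stage (x axis), 3 arrays a group. Grey points had a group at or under background. The coloured points lie between -0.48 (fgfr4 at 0.00625 mM, 6-somites) and 0.53 (fgf24 at 5 mM, 6-somites), and 0 passed the adjusted p.

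The 3 smallest p-values all came from 6-somites embryos. fgf13a had levels of 3.28, 3.13 and 3.44 at 0.00625 mM, against 2.75, 2.88 and 2.84 in controls, a difference of 0.46 ± 0.12 that did not pass (limma, adjusted p = 0.073). The groups did not overlap, but the control mean of 2.82 was under background. At 0.625 mM its levels were 2.45, 2.53 and 2.59, under those of the controls, and at 5 mM they were 2.73, 2.76 and 2.82, so the levels did not follow the dose.

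fgfr4 had levels of 6.39, 6.48 and 6.61 at 0.00625 mM, against 6.88, 7.02 and 7.03 in controls, a difference of -0.48 ± 0.13 (limma, adjusted p = 0.0815). At 0.625 mM the levels were 6.84, 6.74 and 6.52, and at 5 mM 6.89, 6.98 and 6.69, so the lowest dose lay farthest from the controls. fgf24 had levels of 4.17, 4.43 and 4.23 at 5 mM, against 3.91, 3.59 and 3.74 in controls, a difference of 0.53 ± 0.15 (limma, adjusted p = 0.323). The fgf24 groups did not overlap, and the same dose gave 3.38, 3.30 and 3.63 at 21-somites against 3.77, 3.69 and 3.55 in controls of that stage.

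The other pathway genes gave no called dose difference either. Over the 9 comparisons, 0 of 414 values of the 46 Wnt pathway genes and 0 of 261 values of the 29 Fgf pathway genes passed (limma, adjusted p under 0.05), with 29 and 12 values at an unadjusted p under 0.05.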

How the data were processed

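The authors deposited 1 table of log2 values of 36 one-colour Affymetrix arrays. Their log2 scale was inferred from a range of 0.599 to 13.24. How the authors summarised and normalized them is not given here. Per the labels' protocols, total RNA of whole embryos was amplified and labelled with biotin using NuGEN kits. The manufacturer's 115 control probe sets were left out of the tests. Of 15502 probe sets, 10795 had 1 symbol, 135 several and 4572 none. fgfr1op2 fell outside the rule by name, and 2 probe sets with several symbols were not used. Members and gene lists were chosen with earlier results of these data known.

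In R 4.3.3, limma 3.58.1 (lmFit, eBayes) fitted 1 model with the 12 groups to the 36 arrays, two-sided, with Benjamini-Hochberg adjustment over all probe sets in each comparison. The median SE was 0.141 between 2 groups and 0.0707 between stages. The fits were tested on simulated data. Where a stage lay under background, the fold is at least that against 2.98. Named genes were those called over both steps with the largest changes within each role, the 3 smallest p-values of the dose comparisons, up to 3 genes each way in each list, and gene copies. Alternatives were other normalizations, 50 added on the linear scale, a filter, array weights, fewer arrays and other probe sets. The contrast between steps, the counts without overlap and the bound for fzd8b were added after the data were seen. Pools of 15 embryos are the replicates, and whether they came from separate clutches is not stated, so p-values reflect the spread of these pools. Arrays have no read depth, and their number limits the precision. Sequences were not used here, and of genome positions only chromosome and gene order. The 37 symbols all matched RefSeq's GRCz12tu gene table.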

Additional observations from a re-analysis of the deposited data

Results flagged for a closer look

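In some genes every array at a dose lay on 1 side of the controls at one stage and on the other side at another stage. With 3 arrays a group such separation can arise by chance. The share of all probe sets with this pattern was not counted, so no excess can be read from these cases. For fgf8a, 5 mM differed from controls by -0.33 at 21-somites and by 0.25 at Prim-5, where the control mean of 2.89 was under background. For fgfr4, 0.00625 mM differed by -0.48 at 6-somites and by 0.27 at 21-somites, and 0.625 mM differed by -0.28 at 6-somites and by 0.21 at Prim-5. The differences between these pairs of stages were not tested one by one. The joint test of stage by dose did not pass for fgf8a (limma moderated F, adjusted p = 0.85) or fgfr4 (adjusted p = 0.654).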

How the results depend on the processing

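With 3 arrays a group and most ligands near background, small dose effects were not detectable. In the control arrays alone, which are 3 instead of 12 a stage, 10 member genes were lower and 1 higher in the first step, 3 were lower in the second and 13 over both. There the Wnt pathway genes gave 16 lower and 3 higher in the first step and 5 and 1 in the second, and the Fgf pathway genes 8 lower in the first step and 3 lower and 0 higher in the second. With all arrays the Wnt pathway genes gave 26 lower and 7 higher in the first step and 19 and 5 in the second. The Fgf pathway genes gave 15 lower and 4 higher, then 13 and 1. The shares of all probe sets in these steps are given above. With a filter that kept the brighter probe sets (mean no lower than the median), which leaves fewer genes, 2 members were higher in the first step, 9 lower and 1 higher in the second, and 16 lower and 2 higher over both. The number of genes kept is not given here, so these counts cannot be read as shares. The same filter dropped fgf10a and fgf13a, the genes called higher in all 4 dose groups in the first and in the second step. Of the genes kept, 0 were called so in either step. The filter left 4 and 1 Wnt pathway genes higher in the first and second step, and 2 Fgf pathway genes higher in the first. Cyclic loess gave 7 members higher in the first step and 2 Fgf pathway genes higher in the second; the cause was not tested.

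For fgf10a, the gene higher in all 4 dose groups in the first step, the count was 0 with array weights, 0 without the 2 yolk-poor controls and 2 with the probe sets of largest variance. At 0.00625 mM and 6-somites, 1 member passed with 50 added (fgfr4, -0.33, limma adjusted p = 0.0441, over a range of 0.0441 to 0.337 in its alternatives). How many of all probe sets passed there with 50 added is not given here. Same-numbered arrays did not deviate together (correlations from -0.31 to 0.24, medians of 0.00, -0.02 and -0.01), and the main fits used no pairing. This cannot tell whether pools of the same number came from the same clutch, which is not stated. With the replicate block, 1 member, fgf13a, passed at 0.00625 mM at 6-somites (0.46, limma adjusted p = 0.0476). Its adjusted p ranged from 0.0476 to 0.393 in its alternatives. Of all probe sets, 43 passed there with the block and 45 without it. The test of stage by dose called 1 member with the block (fgf13a, limma adjusted p = 0.0168). That was the only call of this test among all probe sets, against 0 without the block. At 5 mM, calls among all probe sets went from 0 to 2 at 6-somites. They went from 0 to 1 at 21-somites and from 1 to 0 at Prim-5. Among the named genes the block changed no other call.

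Leaving out each array in turn gave 15 to 17 members lower and 4 to 5 higher in the first step, 13 to 15 and 2 to 3 in the second, and 23 to 25 and 4 over both. Called alike in all 4 dose groups were 5 to 6 lower and 0 to 1 higher in the first step, 0 and 1 in the second, and 9 to 11 and 2 to 4 over both. The dose comparisons and the test of stage by dose stayed at 0. The shares of all probe sets in these fits are not given here, so the counts show only how far the member calls moved.

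Of 115 stage and dose values of 51 named genes, a set that leaves out the other members counted above, the control arrays alone lost 29 calls and gained 1. In this set 50 added lost 3 and gained 3, cyclic loess lost 2, and no direction turned. Leaving out single arrays changed calls in this set for dkk3b, fgf10a, sost and egr2a, all dim.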
